A study of Mus musculus with 4 samples.

Results

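The genes of fatty acid activation and beta-oxidation were examined in denervated and sham tibialis anterior (TA) muscle of WT and Fgf21KO mice. They were chosen by symbol, as every gene of the count table whose name begins with Acad, Ech, Etf or Hadh, with Acaa, Acot, Acox, Acsl, Decr or Eci and a digit, or with Cpt1 or Cpt2. This gave 49 of 13825 genes, and all 49 passed the filter on low counts (10 or more counts on average), as did 13084 genes in all. The match by symbol took in Etf1, which encodes a translation termination factor and not a flavoprotein, so 48 of the 49 are enzymes or proteins of acyl-CoA metabolism. Acsl6, Acot3, Acot5, Acot10, Acot12, Cpt1c, Acox2, Acoxl and Eci3 were not analysed here.

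A fatty acid is first joined to coenzyme A by an acyl-CoA synthetase, and the long acyl chain is then passed to carnitine by CPT1, carried into the mitochondrion and returned to coenzyme A by CPT2. Inside, an acyl-CoA dehydrogenase, an enoyl-CoA hydratase, a hydroxyacyl-CoA dehydrogenase and a thiolase shorten the chain in repeated rounds, and electron transfer flavoprotein hands the electrons of the first step to the respiratory chain. Oxidative muscle fibres rely on this pathway more than fast glycolytic fibres, which make up most of the TA.

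TA muscles were taken on day 14 from adult male mice of both genotypes. Sham and denervated WT muscles are written WS and WD, and those of Fgf21KO mice KS and KD. The Fgf21KO mice (FGF21KO in the labels) lacked the growth factor gene in the whole body, and the WT mice were C57BL/6J. By the study's methods the WT mice were purchased and the Fgf21KO mice came from another laboratory, with no strain named there. Genotype and colony thus could not be told apart. RNA of 4 muscles was pooled for each group, so each group was 1 library, no difference had a replicate check, and animals could not be told apart. By the labels a piece of the left sciatic nerve was cut out and the control was the right leg with its nerve intact, whereas the study's methods describe a sham operation on the opposite limb. The genotype was not checked by its target, since Fgf21 was not analysed here. The WS and WD libraries held 25249879 and 29150147 counts, and the KS and KD libraries 34141303 and 27740920. A count of 3 corresponded to 0.129 and 0.0919 CPM in the former pair and to 0.101 and 0.0970 in the latter. Levels are given as CPM (counts over the TMM-scaled library size), and ratios as differences of log2 CPM with a prior count of 2. Intervals are exact Clopper-Pearson 95% intervals that cover counting error only.

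Of the markers of skeletal muscle fibres, 3 of 12 were in the table (Mylpf, Tnni2 and Myh1), and none was at 0. The most abundant, Myh1, was at 24303 CPM in WS and 15651 in WD, and at 21602 in KS and 17532 in KD.

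The members together took 0.578% and 0.675% of the counts of the 13825 genes in WS and WD, and 0.560% and 0.653% in KS and KD. Most of the listed fibre markers were not among these genes, so these are not shares of all muscle RNA. On TMM-scaled sizes their summed level stood at 6282 CPM in WS and 6024 in WD, and at 6437 in KS and 5856 in KD. The log2 ratio of this sum was -0.06 in WT (WD vs WS, 95% interval -0.07 to -0.05) and -0.14 in Fgf21KO (KD vs KS, -0.15 to -0.13). It was 0.22 in both comparisons on total counts alone, so the direction of the sum depended on the scaling. The share of the 15 mitochondrially encoded genes was 27.3% and 30.8% in the sham libraries (WS and KS) and 19.6% and 20.8% in the denervated ones (WD and KD). Scaling by total counts moved the median log2 ratio of all genes to 0.29 in WT and 0.36 in Fgf21KO. With the mitochondrially encoded genes left out of the totals, these medians were 0.14 and 0.17, and the ratio of the sum was 0.08 and 0.03.

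Levels were compared between genes per kb of the longest protein-coding transcript, which was found for all 49. In WS the 4 highest were Acadvl (231 CPM per kb), Etfb (229), Hadhb (224) and Acadl (211). Hadhb, the thiolase subunit of the trifunctional protein, was the highest in the other libraries, at 237 CPM per kb in KS, 259.7 in WD and 263 in KD. With the mean length of the protein-coding transcripts, an alternative chosen after seeing the data, the order differed. Etfb (335 CPM per kb), Acadm (303), Acsl1 (297) and Hadhb (272) were then the highest in WS, and Acadm (335) in KS, while Hadhb remained the highest in WD (316) and KD (319). At the other end, Acot4 was at 0.0833 CPM per kb in WS and 0.163 in WD, and at 0.0543 in KS and 0.182 in KD. The members thus covered a wide range of levels, and those at the low end rested on few reads.

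**Figure D1:**
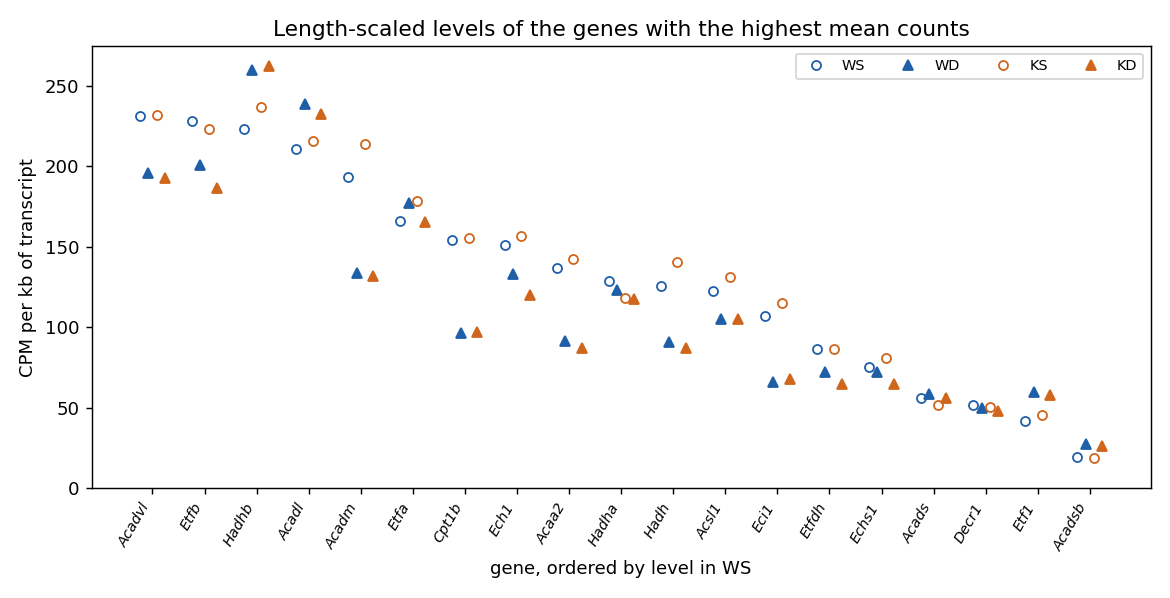
Length-scaled levels (CPM per kb of the longest protein-coding transcript, linear axis from 0) of the members among the 20 with the highest mean count, apart from those not reported here, ordered by their level in WS. Each point is 1 pooled library, open circles are sham and filled triangles denervated, blue is WT and orange Fgf21KO. Cpt1b was at 154 CPM per kb in WS and 96.4 in WD, while Hadhb was at 224 in WS and 259.7 in WD on TMM-scaled sizes.

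To ask how denervation changed these genes, each pair of libraries was compared within a genotype, and both pairs were then joined in an additive edgeR quasi-likelihood model of genotype and surgery. In WD vs WS, 2 members (Acot6 and Acsl3) were at least 2-fold higher, against 7.18% of all genes tested, and 0 were at least 2-fold lower, against 7.61%. In KD vs KS, 4 members (Acot6, Acsl3, Acot4 and Decr2) were at least 2-fold higher, against 7.51%, and 0 were at least 2-fold lower, against 6.10%. At least 1.5-fold apart in either direction were 11 members in WT, against 34.7% of all genes, 18 in Fgf21KO, against 33.9%, and 1 (Decr2, which was lower in KS) between the sham groups, against 7.62%. On total counts alone 4 members (Acot6, Acsl3, Acot4 and Acot9) were at least 2-fold apart in WT, against 16.2%, and 10 in Fgf21KO, against 17.5%. The deposited log2 values gave 2 (Acsl3 and Acot6) in Fgf21KO, against 8.54%. The median log2 ratio of the members was 0.09 in WT and 0.06 in Fgf21KO, beside 0.01 in each for all genes.

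By the model, 3 members (Acsl3, Acot6 and Acot4) were called higher at an adjusted p below 0.05 and at least 2-fold, against 6.84% of all genes, and 0 were called lower, against 6.24%. At an adjusted p below 0.05 alone, 17 members rose, against 26.6% of all genes, and 13 fell, against 27.0%. The remaining 19 did not pass. The falling share was thus near that of all genes tested, and the rising share was above it, a difference that was not tested. What follows describes which members rose and fell. The words rose and fell refer below to an adjusted p below 0.05 in this model (Benjamini-Hochberg over 13084 genes), which treats the genotypes as replicates of denervation and has 1 residual degree of freedom. With total counts as the scale 6 members were called at 2-fold in either direction, against 15.5% of all genes. At an adjusted p alone the split was then 32 up, against 46.7% of all genes, and 7 down, against 12.8%. Acadvl, Acsl1, Ech1, Echs1 and Etfb then had log2 fold changes above 0, so the direction of these 5 depended on the scaling. With the mitochondrially encoded genes left out of the totals, they were below 0 but did not pass, and the split was 24 up, against 36.4% of all genes, and 8 down, against 19.9%. DESeq2's Wald test gave 13 that rose, against 17.5% of the 12576 genes to which it gave an adjusted p, and 12 that fell, against 19.8%. The model of surgery alone gave 17 up, against 24.3% of all genes, and 12 down, against 25.0%.

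The scaling also moved the counts by role. Of all genes, 46.7% rose and 12.8% fell on total counts alone, beside 26.6% and 27.0% on TMM-scaled sizes. The counts by role, here and below, are small, and none was tested against these shares. On total counts alone 3 of the synthetases rose and 0 fell, 2 of the carnitine palmitoyltransferases rose and 1 fell, and 5 of the fatty acid dehydrogenases rose and 1 fell. The same scale gave 3 up and 0 down for the genes of electron transfer flavoprotein, 2 up and 2 down for the later mitochondrial steps, 3 up and 1 down for the auxiliary enzymes, and 7 up and 2 down for the thioesterases.

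**Figure D2:**
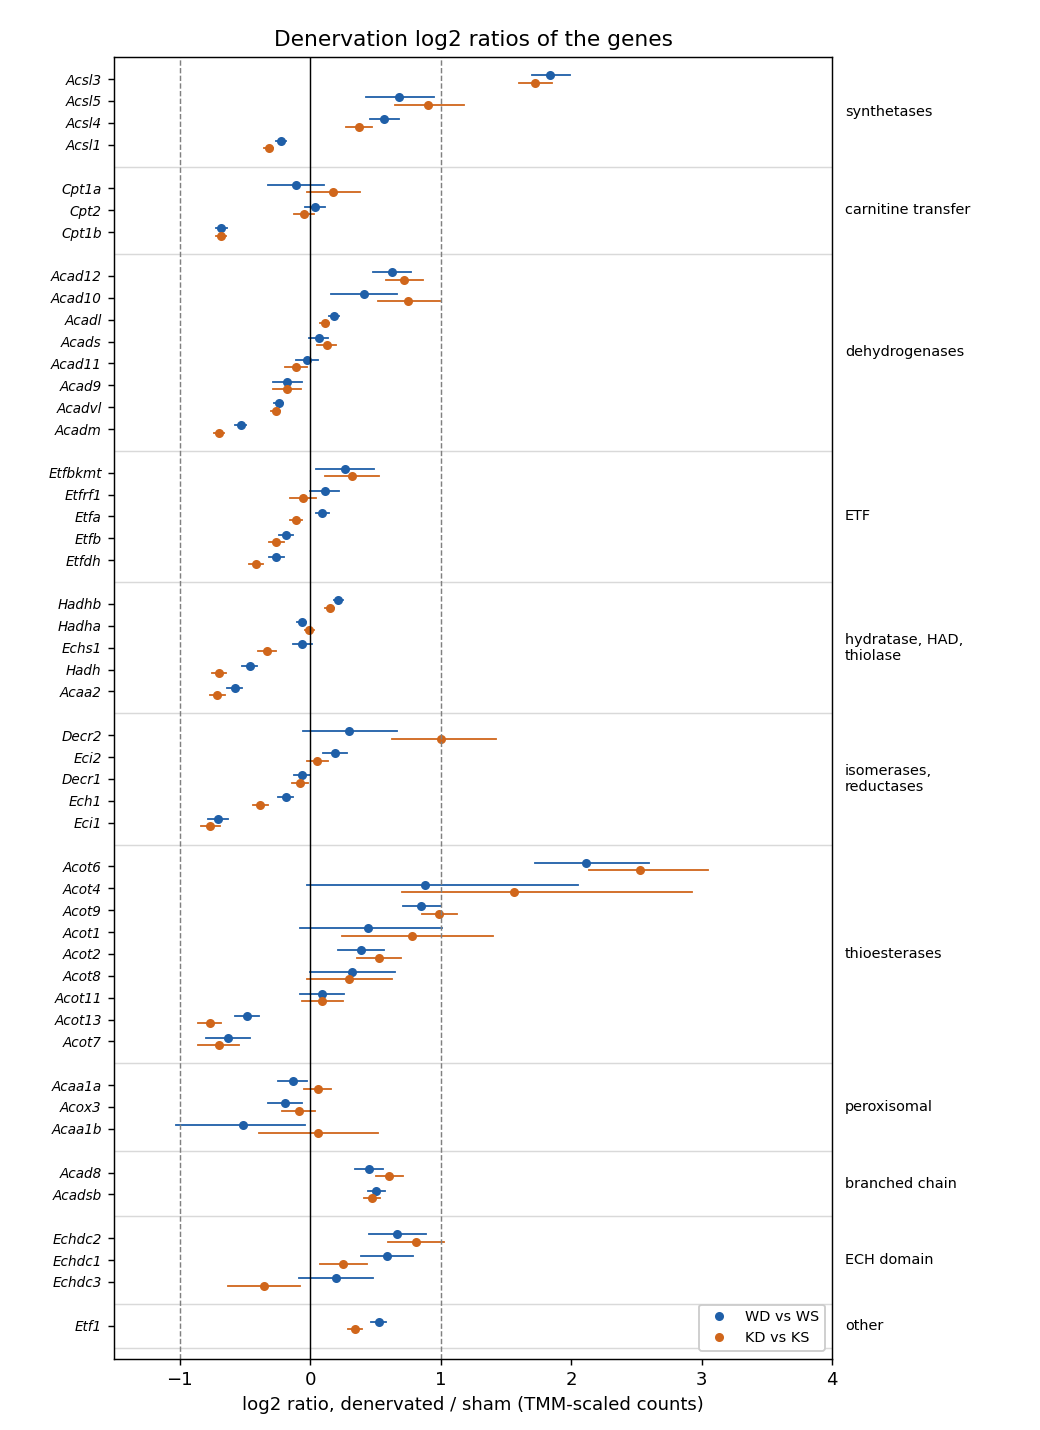
Log2 ratios of denervated over sham muscle for the members, apart from those not reported here, in WT (WD vs WS, blue) and Fgf21KO (KD vs KS, orange), grouped by role. Points are ratios of 1 pooled library over another on TMM-scaled counts, bars are exact 95% intervals for counting error only, and dashed lines mark 2-fold. Acot6 and Acsl3 lay beyond 2-fold higher in both genotypes, and no member lay beyond 2-fold lower. With total counts alone as the scale, the median of all genes moved to 0.29 and 0.36 (log2), so the side of 0 on which a point lies depends on the scaling for the smaller ratios.

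Among the acyl-CoA synthetases, 3 of 4 rose and 1 fell. Acsl1, the main synthetase of muscle, was at 478 CPM in WS and 409.9 in WD, and at 512 in KS and 410.4 in KD. Its log2 ratio was -0.22 in WT (95% interval -0.26 to -0.18) and -0.32 in Fgf21KO (-0.35 to -0.28), and it fell (log2 fold change -0.27, adjusted p = 0.00205), although on total counts alone its log2 fold change was 0.05. Acsl3, an enzyme of the endoplasmic reticulum and lipid droplets, was at 20.4 CPM in WS and 73.3 in WD, and at 22.2 in KS and 73.6 in KD. Both denervated libraries were above both sham libraries, and the log2 ratio was 1.84 in WT (95% interval 1.70 to 1.99) and 1.73 in Fgf21KO (1.60 to 1.86) (adjusted p = 1.50e-16). Acsl5 was at 7.79 CPM in WS and 12.5 in WD, and at 6.13 in KS and 11.5 in KD. It rose, with log2 ratios of 0.68 and 0.91. Acsl4, which prefers arachidonic acid, rose as well, with log2 ratios of 0.57 and 0.38.

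The share of Acsl1 in the Acsl level per kb was 89.2% in WS and 76.1% in WD, and 89.1% in KS and 76.1% in KD. The share of Acsl3 was 3.76% in WS and 13.4% in WD, and 3.81% in KS and 13.5% in KD. With the mean transcript length, Acsl1 had 93.1% in WS and 83.5% in WD, and 93.4% in KS and 83.6% in KD.

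Of the carnitine palmitoyltransferases, Cpt1b fell and Cpt1a and Cpt2 did not pass. Cpt1b, the muscle isoform of the malonyl-CoA-sensitive step, was at 447 CPM in WS and 279 in WD, and at 451 in KS and 281 in KD. Its log2 ratio was -0.68 in WT (95% interval -0.72 to -0.64) and -0.68 in Fgf21KO (-0.72 to -0.65) (adjusted p = 2.28e-09), and it was -0.36 over both genotypes on total counts alone. The isoform found mainly in liver, Cpt1a, was at 13.8 CPM in WS and 12.8 in WD, and at 12.4 in KS and 14.0 in KD, and the order of its sham and denervated libraries differed between genotypes. On total counts alone its ratios were 0.18 and 0.54, both above 0. Cpt2, the inner membrane enzyme, was at 98.7 CPM in WS and 101 in WD, and at 98.0 in KS and 95.01 in KD, with log2 ratios of 0.04 and -0.05. The share of Cpt1b in the Cpt1 level per kb was 98.0% in WS and 97.0% in WD, and 98.2% in KS and 96.8% in KD.

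The 8 acyl-CoA dehydrogenases listed for fatty acids were split, with 2 that rose, 2 that fell and 4 that did not pass. Acadvl, which acts on very long chains, was at 502 CPM in WS and 425 in WD, and at 503 in KS and 419 in KD. It fell (log2 fold change -0.25, adjusted p = 0.00349), with 0.07 on total counts alone. Acadl, which acts on long chains, was at 404 CPM in WS and 458 in WD, and at 413 in KS and 446 in KD. Its log2 ratios were 0.18 and 0.11, and it did not pass (adjusted p = 0.084). Acadl rose on total counts alone (log2 fold change 0.47) and without the mitochondrially encoded genes in the totals (0.30). Acadm, the medium-chain enzyme, was at 396 CPM in WS and 274 in WD, and at 438 in KS and 270.3 in KD. It fell, with a log2 ratio of -0.53 in WT (95% interval -0.57 to -0.49) and -0.70 in Fgf21KO (-0.74 to -0.66) (adjusted p = 2.57e-08). The short-chain enzyme, Acads, was at 105 CPM in WS and 110.1 in WD, and at 96.2 in KS and 105 in KD. It did not pass (adjusted p = 0.277). Acads rose on total counts alone (log2 fold change 0.42) and without the mitochondrially encoded genes in the totals (0.25). Acadm was lower in both denervated libraries under each scaling.

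Acad10 and Acad12, whose substrates are less well known, rose. Acad12 was at 24.7 CPM in WS and 38.1 in WD, and at 21.3 in KS and 35.2 in KD, with log2 ratios of 0.63 and 0.72, and Acad10 had log2 ratios of 0.41 and 0.75. These are closely related genes, and how reads shared between them were counted is not given in the sources used here. Acad9, also an assembly factor of complex I, and Acad11 did not pass.

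Of the 5 genes listed with electron transfer flavoprotein, 2 fell and 3 did not pass. Etfdh, the dehydrogenase that passes the electrons to ubiquinone, was at 205 CPM in WS and 172 in WD, and at 206 in KS and 154 in KD. It fell (log2 fold change -0.34, adjusted p = 0.000225), but on total counts alone its log2 fold change was -0.02 and it did not pass. Etfb, the beta subunit, was at 204 CPM in WS and 179.6 in WD, and at 199 in KS and 167 in KD. It fell (log2 fold change -0.22), with 0.10 on total counts alone. Etfa, the alpha subunit, was at 231 CPM in WS and 247 in WD, and at 248 in KS and 230.3 in KD. It did not pass. Its log2 ratio was 0.09 in WT (95% interval 0.04 to 0.14) and -0.11 in Fgf21KO (-0.16 to -0.06), so the intervals of the genotypes lay on opposite sides of 0 on TMM-scaled sizes. The ratios were 0.38 and 0.25 on total counts alone, and 0.23 and 0.055 without the mitochondrially encoded genes in the totals, so the opposite signs depended on the scaling. This difference between genotypes was not tested.

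For the later steps of the mitochondrial round, 1 of 5 genes rose and 3 fell. Hadha, the hydratase and dehydrogenase subunit of the trifunctional protein for long chains, was at 517 CPM in WS and 494 in WD, and at 476 in KS and 473 in KD. It did not pass (adjusted p = 0.691). Its partner Hadhb was at 458 CPM in WS and 532 in WD, and at 485 in KS and 538 in KD. It rose slightly (log2 fold change 0.18, adjusted p = 0.0314), a call lost with DESeq2's Wald test. The soluble enzymes for shorter chains were lower. Hadh, the hydroxyacyl-CoA dehydrogenase, was at 224 CPM in WS and 163 in WD, and at 252 in KS and 155 in KD, with a log2 ratio of -0.46 in WT (95% interval -0.52 to -0.41) and -0.70 in Fgf21KO (-0.75 to -0.64). Acaa2, the thiolase, was at 207 CPM in WS and 139 in WD, and at 216 in KS and 132 in KD, with a log2 ratio of -0.58 in WT (95% interval -0.64 to -0.52) and -0.71 in Fgf21KO (-0.77 to -0.66). Both fell (adjusted p = 1.10e-07 and 9.60e-09) and kept log2 fold changes below 0 on total counts alone (-0.26 and -0.32). Echs1, the short-chain hydratase, was at 117 CPM in WS and 113 in WD, and at 126 in KS and 101 in KD. It fell by less (log2 fold change -0.19, adjusted p = 0.0341), with 0.13 on total counts alone. Its call was also lost with DESeq2's Wald test and in a model of surgery alone.

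The auxiliary enzymes handle double bonds of unsaturated acids, and of 5 analysed 1 rose and 2 fell. Eci1, the mitochondrial enoyl-CoA isomerase, was at 122 CPM in WS and 74.8 in WD, and at 131 in KS and 76.9 in KD. It had the lowest denervation log2 ratio of the members in WT, at -0.71 in WT (95% interval -0.78 to -0.63) and -0.76 in Fgf21KO (-0.84 to -0.69) (adjusted p = 1.16e-09), and -0.41 over both genotypes on total counts alone. Ech1, the dienoyl-CoA isomerase, was at 192 CPM in WS and 169 in WD, and at 198 in KS and 152 in KD. It fell (log2 fold change -0.28), with 0.04 on total counts alone. Decr1, the mitochondrial dienoyl-CoA reductase, was at 154 CPM in WS and 147 in WD, and at 149.6 in KS and 142 in KD. It did not pass. Decr2, its peroxisomal counterpart, had counts of 104 in WS against 180 in WD and 79 in KS against 167 in KD. It rose (adjusted p = 0.0135), with a log2 ratio of 0.30 in WT (95% interval -0.06 to 0.66) and 1.003 in Fgf21KO (0.63 to 1.43). It did not pass with DESeq2's Wald test. The KS library was the lowest of the 4, and the sham libraries were further apart than the denervated ones.

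The thioesterases release free fatty acids from coenzyme A. Of 9 analysed, 4 rose, 2 fell and 3 did not pass. Acot6 had the highest log2 ratio of the members in both genotypes, from counts of 53 in WS against 330 in WD and 48 in KS against 299 in KD. Its log2 ratio was 2.11 in WT (95% interval 1.73 to 2.59) and 2.53 in Fgf21KO (2.14 to 3.05) (adjusted p = 6.15e-11). Acot4, a peroxisomal thioesterase, had few counts, 12 in WS against 33 in WD and 10 in KS against 35 in KD, with a log2 ratio of 0.88 in WT (95% interval -0.02 to 2.06) and 1.57 in Fgf21KO (0.70 to 2.93) (adjusted p = 0.012). Its call was lost with DESeq2's Wald test. Acot2, the mitochondrial enzyme of the same cluster, was at 17.9 CPM in WS and 23.4 in WD, and at 16.1 in KS and 23.2 in KD. It rose (log2 ratios 0.39 and 0.53). Acot1, its cytosolic neighbour, had counts of 45 in WS against 87 in WD and 41 in KS against 75 in KD. It did not pass (adjusted p = 0.0693). These Acot genes are close copies of one another, so their separate values are uncertain where reads were shared.

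Acot9, a mitochondrial thioesterase outside that cluster, was at 23.5 CPM in WS and 42.5 in WD, and at 22.2 in KS and 44.0 in KD. It rose, with a log2 ratio of 0.85 in WT (95% interval 0.71 to 0.9997) and 0.99 in Fgf21KO (0.85 to 1.13). Acot7, a cytosolic enzyme best known from neurons, was at 25.9 CPM in WS and 16.8 in WD, and at 28.1 in KS and 17.3 in KD. It fell (log2 ratios -0.63 and -0.70). Acot13, a small mitochondrial thioesterase, fell as well, with log2 ratios of -0.48 and -0.77, the second of which was the lowest of the members in KD vs KS. The share of Acot13 in the Acot level per kb was 70.3% in WS and 57.9% in WD, and 73.0% in KS and 55.7% in KD. The share of Acot9 was 8.21% in WS and 17.1% in WD, and 7.15% in KS and 18.5% in KD.

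Of the peroxisomal oxidases and thiolases, Acox3, Acaa1a and Acaa1b did not pass. Acaa1a and Acaa1b are near-identical copies, and Acaa1b had 70 to 86 counts, so their separate values are uncertain. Acadsb and Acad8, dehydrogenases of branched-chain amino acid breakdown, both rose. Acadsb was at 116 CPM in WS and 165 in WD, and at 115 in KS and 159 in KD, with log2 ratios of 0.51 and 0.48, and Acad8 had log2 ratios of 0.45 and 0.61. Of the enoyl-CoA hydratase domain proteins, Echdc2 was at 11.1 CPM in WS and 17.6 in WD, and at 9.26 in KS and 16.3 in KD. It rose (log2 ratios 0.67 and 0.81), as did Echdc1 (though not with DESeq2's Wald test), while Echdc3 did not pass. Etf1, the translation factor, was at 154 CPM in WS and 222 in WD, and at 169 in KS and 215 in KD. It rose (log2 fold change 0.44). Without it, a choice made after seeing the data, the median of the members stayed at 0.09 and 0.06.

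To ask whether the genotype mattered, Fgf21KO was compared with WT in each surgery. In KS vs WS, 0 members were at least 2-fold apart, against 2.04% of all genes, and in KD vs WD 0, against 1.55%. The median log2 ratio of the members was -0.0019 between the sham groups and -0.04 between the denervated groups. Of the 49, 43 had a log2 ratio within 0.25 of 0 between the sham groups, and 47 between the denervated groups. The lowest was Decr2 at -0.74 in KS vs WS, and the highest was Acaa1b at 0.36 in KD vs WD. In the quasi-likelihood model 0 members passed for genotype, against 0.673% of all genes, and 0 had an unadjusted p below 0.05, against 7.93% of all genes. DESeq2's Wald test also gave 0 at an adjusted p below 0.05, against 0.229%. The lowest adjusted p of a member in the former was 0.691, which does not show that the genotypes were alike.

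The denervation log2 ratios of the genotypes were at least 1 apart for 0 members, against 4.11% of all genes. The difference (KD vs KS minus WD vs WS) ran from -0.55 for Echdc3 to 0.71 for Decr2, with a median of -0.02. With 1 library per group the interaction could not be tested.

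Other genes around the pathway were taken from fixed lists. Beside their counts, 26.6% of all genes rose and 27.0% fell on TMM-scaled sizes. On total counts alone these shares were 46.7% and 12.8%. Neither these lists nor the markers below were tested against the shares of all genes. Cd36, Fabp3, Slc25a20 and Mlycd are among the genes that stand in more than 1 list. Of 13 other transport genes, 4 rose and 6 fell, and on total counts alone 6 rose and 2 fell. Slc27a1, a fatty acid transport protein, was the lowest, with log2 ratios of -1.15 and -1.23, followed by Cd36, the fatty acid translocase, with -0.69 and -0.73. Dbi (0.46 and 0.42), which binds acyl-CoA, and Acbd5 (0.37 and 0.24) were the highest. Slc25a20, the carnitine-acylcarnitine carrier, rose slightly (0.22 and 0.16).

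Of 18 transcriptional regulators of fatty acid oxidation, 13 fell and 2 rose, with a median log2 ratio of -0.48 in the WT pair and -0.36 in the Fgf21KO pair. Scaled by total counts, 7 fell and 3 rose. The list was not split by whether a regulator acts for or against oxidation. Nr4a1 (-1.76 and -2.87) and Rxrg (-1.84 and -2.04) had the lowest log2 ratios, and Esrrg (0.76 and 0.47) and Ppargc1a (0.46 and 0.02) the highest. Esrra, the oestrogen-related receptor, was at 156 CPM in WS and 72.2 in WD, and at 142 in KS and 75.2 in KD. It fell. Ppara, the fatty acid receptor, was at 35.8 CPM in WS and 20.6 in WD, and at 29.6 in KS and 16.9 in KD. It fell, with log2 ratios of -0.79 and -0.81. Ppard had log2 ratios of -0.22 and -0.34 and fell, although its log2 fold change was 0.04 on total counts alone.

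Of 12 PPAR target genes outside the members, 4 rose and 6 fell, against 5 and 5 on total counts alone. Lpl, the lipoprotein lipase, had log2 ratios of -1.19 and -1.60 and Txnip -0.75 and -0.97. Pdk4, which shuts pyruvate out of the mitochondrion's acetyl-CoA supply, was at 622 CPM in WS and 1006 in WD, and at 605 in KS and 888 in KD. It rose, and Angptl4 had log2 ratios of 0.43 and 1.15 and rose. Ucp3 was not analysed here. Of 7 genes of malonyl-CoA control, Mlycd, the decarboxylase, fell (-0.63 and -0.55), Acaca, a carboxylase, rose (0.24 and 0.41), and 5 did not pass. With total counts as the scale, 5 of them rose and 1 fell. Acacb, the carboxylase of the mitochondrial surface, was among those that did not pass, with log2 ratios of -0.23 and -0.05 and the second lowest mean of the list, and Acss1 (0.09 and 0.04) had the second highest.

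Of 17 genes listed for the rest of peroxisomal oxidation, among them the member Acot8, 2 rose and 5 fell, whereas on total counts alone 10 rose and 0 fell. Pex11a (-0.36 and -0.78) and Pex7 (-0.34 and -0.42) had the lowest log2 ratios, and Cat (0.87 and 0.74), the catalase, and Scp2 (0.43 and 0.21) the highest. Of 16 genes of propionate and branched-chain oxidation, 3 rose and 7 fell (9 and 2 on total counts alone), with Auh (-0.48 and -0.79) and Bckdk (-0.63 and -0.60) the lowest, and Hibch (0.38 and 0.21) and Ivd (0.24 and 0.32) the highest. Of 6 ketone body enzymes, 1 rose and 3 fell (1 and 0 on total counts alone). Among them, the thiolases Acat2 and Acat1 had log2 ratios of 0.02 and -0.07 and of -0.16 and -0.31. Of 5 genes of flavin supply, 0 rose and 2 fell (1 and 0 on total counts alone). Slc52a3 (-0.58 and -0.79) and Rfk (-0.18 and -0.36) had the lowest log2 ratios, and Slc25a32 (0.08 and 0.02) and Slc52a2 (0.02 and -0.04) the highest. Scaled by total counts, the log2 fold changes of Rfk and Acat1 were 0.05 and 0.09.

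Of 22 genes of the TCA cycle, 19 fell and 1 rose, and the median log2 ratio was -0.39 in the WT pair and -0.45 in the Fgf21KO pair. Idh3a (-0.83 and -1.03) and Mdh2 (-0.75 and -0.76) had the lowest log2 ratios, and Pcx (0.17 and 0.22) and Suclg2 (0.18 and 0.05) the highest. Of 12 glycolysis genes, 11 fell and 1 rose, with a median of -0.70 in the WT pair and -0.82 in the Fgf21KO pair. Ldha (-1.44 and -1.73) and Eno3 (-1.37 and -1.63) had the lowest log2 ratios, and Hk1 (0.45 and 0.46) and Hk2 (-0.21 and -0.30) the highest. Scaled by total counts, 8 of the TCA genes fell and 4 rose, and 9 of the glycolysis genes fell and 1 rose. Differences between these lists and the members were not tested.

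Markers of fibre type and of other cells moved in the same libraries. In bulk muscle, fewer cells of a type and less RNA per cell cannot be told apart. The part of these markers in the changes of the members was not tested. Of the slow fibre markers, 3 of 7 were in the table, 2 rose and their sum stood at 53.0 CPM in WS and 240.4 in WD, and at 42.8 in KS and 219 in KD. The most abundant was Atp2a2, at 43.6 CPM in WS and 192 in WD, and at 35.4 in KS and 172 in KD. Macrophage markers (8 of 8 in the table, 6 rose) stood in sum at 30.8 CPM in WS and 70.0 in WD, and at 33.6 in KS and 67.9 in KD, with Lyz2 the most abundant, at 11.8 CPM in WS and 22.5 in WD, and at 12.5 in KS and 24.3 in KD. Endothelial markers (6 of 6, all 6 fell) stood in sum at 459.6 CPM in WS and 209 in WD, and at 368 in KS and 201 in KD, with Cdh5 the most abundant, at 159 CPM in WS and 66.4 in WD, and at 122 in KS and 58.3 in KD. On total counts alone all 3 slow fibre markers and all 8 macrophage markers rose, and 5 of the endothelial markers fell.

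Fibroblast and progenitor markers (8 of 8, 6 fell) stood in sum at 821 CPM in WS and 507 in WD, and at 801 in KS and 544 in KD, with Col3a1 the most abundant, at 227 CPM in WS and 143 in WD, and at 196 in KS and 151 in KD. Adipocyte markers (4 of 9, 1 fell) stood in sum at 247 CPM in WS and 177 in WD, and at 245 in KS and 180.1 in KD, nearly all of it Fabp4, at 225 CPM in WS and 157 in WD, and at 229 in KS and 167 in KD. Erythroid markers (5 of 5, all 5 fell) stood in sum at 289 CPM in WS and 208 in WD, and at 333 in KS and 170.2 in KD, with Hbb-bs at 89.0 CPM in WS and 64.6 in WD, and at 107 in KS and 56.3 in KD. Schwann cell markers (3 of 6, 1 fell) stood in sum at 23.8 CPM in WS and 17.0 in WD, and at 22.5 in KS and 17.5 in KD, with Mbp at 18.3 CPM in WS and 11.4 in WD, and at 15.8 in KS and 12.5 in KD, and satellite cell markers (2 of 5, 1 rose) at 21.4 CPM in WS and 58.8 in WD, and at 23.0 in KS and 53.4 in KD, with Sdc4 at 17.2 CPM in WS and 55.0 in WD, and at 17.4 in KS and 49.1 in KD. Vcam1, the other satellite cell marker in the table, did not pass and lay on the other side of 0. Its log2 ratios were -0.14 in WT and -0.37 in Fgf21KO. The skeletal muscle fibre markers (3 of 12, all 3 fell) stood in sum at 41913 CPM in WS and 25476 in WD, and at 40571 in KS and 27726 in KD. Scaled by total counts, 3 of the fibroblast and progenitor markers fell, 4 of the erythroid, 2 of the skeletal muscle fibre, 1 of the adipocyte and 0 of the Schwann cell markers, while 1 of the satellite cell markers rose. None of the markers in the table was at 0 in any library.

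Promoters were searched for letters bound by nuclear receptors, since PPAR, RXR and ERR regulators of the pathway recognise related sites. RefSeq promoters of build GRCm38.p6 (250 bases before to 50 after the start) were found for 41 of the 49 members, 45 promoters in all. The half-site AGGTCA stood on either strand of 7 of these (15.6%), against 16.3% of 32851 promoters in the table. A pair of half-sites separated by 1 base, with at most 2 mismatches over 12 fixed bases, stood in 3 (6.67%), against 3.86% of the table. The ERR motif, the half-site with TCA before it, stood in 0, against 0.423%. A match is a description of letters and no evidence of binding.

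The 3 promoters with the pair are shown because they are those that hold it among the members. Each is the 250 bases upstream of the start, 5′ to 3′ on the strand of the gene, and capitals mark the pair, which in Acot4 and Echs1 overlaps an exact half-site. They lie on build GRCm38.p6 at chr12:84038129-84038378 (Acot4, plus strand), chr7:140116422-140116671 (Echs1, minus strand) and chr9:55512244-55512493 (Etfa, minus strand).
Acot4: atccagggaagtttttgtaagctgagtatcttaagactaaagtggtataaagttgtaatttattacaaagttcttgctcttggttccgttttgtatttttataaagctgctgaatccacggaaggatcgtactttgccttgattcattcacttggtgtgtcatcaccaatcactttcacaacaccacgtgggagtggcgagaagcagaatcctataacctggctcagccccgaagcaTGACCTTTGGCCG
Echs1: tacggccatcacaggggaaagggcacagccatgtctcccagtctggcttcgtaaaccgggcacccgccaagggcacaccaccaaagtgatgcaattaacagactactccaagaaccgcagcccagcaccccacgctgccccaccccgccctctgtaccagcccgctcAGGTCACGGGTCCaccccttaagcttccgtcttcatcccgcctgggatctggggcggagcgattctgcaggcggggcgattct
Etfa: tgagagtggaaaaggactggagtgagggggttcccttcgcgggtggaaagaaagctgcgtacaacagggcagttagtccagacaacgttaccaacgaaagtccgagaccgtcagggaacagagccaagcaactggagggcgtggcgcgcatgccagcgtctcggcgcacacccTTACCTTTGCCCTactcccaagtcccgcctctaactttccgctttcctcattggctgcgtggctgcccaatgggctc
The 3 genes did not move alike, with denervation log2 ratios of 0.88 and 1.57 for Acot4, -0.06 and -0.33 for Echs1 and 0.09 and -0.11 for Etfa.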

How the data were processed

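RNA from TA muscle was sequenced as 4 libraries made with a stranded mRNA kit, 1 for each group, with 4 muscles pooled in each. The authors deposited whole-number read counts for each gene, not normalized. The second deposited table, on a log2 scale and named for FPKM, was found to hold those counts after multiplication by a constant of each library and addition of 1, so it carries no length correction. The submitters' processing notes name GRCm39 and FastQC, and the aligner and counter are not given in the sources used here. Column names were matched to the labels by genotype and surgery.

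The members and gene lists were chosen with earlier results of these data known. The 13084 of 13825 genes with 10 or more counts on average were scaled by TMM in edgeR 4.0.16 (R 4.3.3), and log2 CPM used a prior count of 2. Denervation and genotype were tested over the 4 libraries with glmQLFTest of edgeR, a quasi-likelihood test, in an additive fit (common biological coefficient of variation 0.0681), with Benjamini-Hochberg adjustment over all genes tested. By the study's methods, limbs compared for gene expression belonged to the same mice, so the genotype term also pairs the sham and denervated pools. Pairs of libraries were compared by ratio only. Intervals were computed with scipy 1.17.1 in Python 3.11.15. Total counts ran from 25249879 to 34141303. The scripts were tested on simulated data.

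Alternatives were DESeq2 1.42.0 (size factors and Wald test), total counts with and without the mitochondrially encoded genes, a prior count of 0.125 or 5, no filter or one at 50 counts, differences of the deposited log2 values, a 1.5-fold threshold, adjusted p alone and a model without genotype. Every member may be named. Values in each library are given for the 20 with the highest mean count, the 12 with the largest mean denervation log2 ratio in size, and a fixed set of key enzymes. Of each other list the 2 highest and 2 lowest are named, besides fixed regulators and targets. The values of a few genes are not reported here, although the counts and sums include them. Promoters came from RefSeq (GRCm38.p6) and transcript lengths from GENCODE, matched by symbol.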

Additional observations from a re-analysis of the deposited data

Results flagged for a closer look

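For 7 members the denervation log2 ratio was above 0 in one genotype and below 0 in the other, with 1 pooled library behind each value. These differences between genotypes were not tested. The differences (KD vs KS minus WD vs WS) were 0.28 for Cpt1a, -0.084 for Cpt2, -0.16 for Etfrf1, -0.55 for Echdc3, -0.20 for Etfa, 0.19 for Acaa1a and 0.58 for Acaa1b. For Etfa, the ratios were 0.09 in WT (95% interval 0.04 to 0.14) and -0.11 in Fgf21KO (-0.16 to -0.06), and it was the 1 member of these 7 whose intervals left out 0 in both genotypes. For Echdc3 they were 0.20 in WT (95% interval -0.09 to 0.48) and -0.35 in Fgf21KO (-0.63 to -0.08), from counts of 167 in WS against 269 in WD and 248 in KS against 202 in KD. For Acaa1b they were -0.52 in WT (95% interval -1.03 to -0.04) and 0.06 in Fgf21KO (-0.39 to 0.52), from counts of 72 in WS against 70 in WD and 79 in KS against 86 in KD. The opposite signs depended on the scaling. On total counts alone, which raised the median of all genes, the ratios were 0.38 and 0.25 for Etfa and 0.48 and 0.0035 for Echdc3, and of these 7 only Acaa1b still had opposite signs (-0.24 and 0.41). Without the mitochondrially encoded genes in the totals, Echdc3 (0.33 and -0.19) and Acaa1b (-0.38 and 0.22) had opposite signs and the other 5 did not.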

How the results depend on the processing

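In the model without the genotype term, which also stands for the paired pools, 17 members rose (against 24.3% of all genes) and 12 fell (25.0%). Animals within a pool could not be paired. No library could be left out of a group of 1. Depth limits the members with few counts, such as Acot4 and Acot1. A median is called moved below where it changed by 0.1 or more. On total counts alone, which by construction leave out the composition factor, the members called were 4 in WT (against 16.2% of all genes), 10 in Fgf21KO (17.5%) and 6 in the model (15.5%). The medians were then 0.38 and 0.42, beside 0.29 and 0.36 for all genes, and 32 rose (against 46.7%) and 7 fell (12.8%). The summed level had denervation log2 ratios of 0.22 in both genotypes, and -0.046 for KS vs WS. Without the mitochondrially encoded genes in the totals, the medians were 0.23 and 0.22, 24 members rose (36.4% of all genes) and 8 fell (19.9%), and the summed level had 0.078 in WT, 0.027 in Fgf21KO, 0.025 between the sham groups and -0.027 between the denervated groups. The model fitted on these totals was added after seeing the data. At 1.5-fold, 11 members were called in WT (against 34.7%), 18 in Fgf21KO (33.9%) and 1 for KS vs WS (7.62%). The deposited log2 values gave 2 in Fgf21KO (8.54%), and the cause was not tested. At an adjusted p alone, 30 were called for denervation.

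Scaled by total counts, the denervation log2 fold change turned to 0.069 for Acadvl, 0.32 for Cpt2, 0.051 for Acsl1, 0.037 for Ech1, 0.25 for Decr1, 0.24 for Echdc3, 0.18 for Acox3, 0.13 for Echs1, 0.28 for Hadha, 0.26 for Acad11, 0.10 for Etfb, 0.31 for Etfa, 0.29 for Acaa1a, 0.14 for Acad9 and 0.10 for Acaa1b. Without the mitochondrially encoded genes it turned to 0.15 for Cpt2, 0.082 for Decr1, 0.069 for Echdc3, 0.010 for Acox3, 0.11 for Hadha, 0.086 for Acad11, 0.14 for Etfa and 0.11 for Acaa1a. At a mean count of at least 50 that of Cpt2 was 0.0019. Of the fold changes of single members under the alternatives, 289 kept direction and side of the threshold, 17 passed it newly and 12 no longer did. With the mean transcript length, chosen after seeing the data, 115 levels per kb left their counting interval and 81 did not. Under the other alternatives the counts of members called stayed within 1.5 times and the medians within 0.1.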
